A study of Mus musculus with 2 samples.

Results

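The cells described here are cultured mouse germ cells that carried many counts of an antibody tag against the receptor KIT and in which no Kit RNA was read. They were chosen in each library from the barcodes with at least 2000 genes detected, at most 20% mitochondrial UMIs (unique molecular identifiers, each standing for 1 captured RNA molecule) and fewer than 40 UMIs of Vim and S100a6, which mark the fibroblast feeders. Among these kept cells, a cell was called tag-high when its tag count exceeded 2 times the median tag of its own library, and it was taken when its Kit RNA was also at 0 UMIs. The rule found 367 tag-high Kit RNA-negative cells among 8694 kept cells and 11271 barcodes. Of these, 140 came from the FGF9-treated library (4537 kept cells) and 227 from the control library (4157 kept cells).

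The study cultured THY-1+ germ cells, which are enriched for spermatogonial stem cells (SSC), from testes of C57 LacZ mouse pups on STO feeders, a mouse fibroblast line. FGF9-treated cells received 20 ng/ml FGF9 for 48 h and control cells received 0 ng/ml FGF, and each treatment gave 1 droplet 3' RNA library with the antibody tag. The labels give passages 9 to 12 for the cultures, though the source name of the FGF9-treated sample has a higher upper passage. The study's methods give passage 12 for the single-cell experiment. The cultures had been maintained without serum on GDNF (20 ng/ml), its soluble receptor GFRA1 (150 ng/ml) and FGF2 (1 ng/ml). Per the study's methods, at the start of the 48 h this medium was replaced by serum-free medium holding either FGF9 or bovine serum albumin, and control cells had no growth factor. With 1 library per treatment, intervals given below are 95% intervals that cover counting error only and not variation between cultures, and nothing between treatments is tested.

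KIT is a receptor tyrosine kinase at the cell surface that binds stem cell factor, the product of Kitl, and signals through PI3 kinase, the RAS and MAP kinase route, SRC family kinases and PLCG1. In the mouse testis, undifferentiated spermatogonia carry little or no KIT, and the receptor appears as spermatogonia begin to differentiate under retinoic acid, with SOHLH1 and SOHLH2 among the factors that promote Kit transcription. After it binds its ligand the receptor is taken up through clathrin-coated vesicles and degraded with the help of the ubiquitin ligase CBL, so that RNA and surface protein of one cell need not change in step. The gene lies on chromosome 5 of the mm10 mouse genome (75574916 to 75656722, plus strand, protein coding).

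The tag count of a kept cell had a median of 309 in the FGF9-treated library and 439 in control, which set the limits at 618 and 878 counts. The cells just inside the limit had 620 and 623 tags in FGF9-treated cells and 879 and 880 tags in control, and those just outside it had 618 and 617 tags in FGF9-treated cells and 878 and 874 tags in control. Tag-high Kit RNA-negative cells made up 3.09% of kept FGF9-treated cells (2.60 to 3.63%) and 5.46% of kept control cells (4.79 to 6.20%). Each library had its own limit, so these shares are not on a common tag scale, and with the control limit in both libraries the FGF9-treated share was 1.01%. Most of these cells lay close to the limit. Their median tag was 2.53 times the library median in FGF9-treated cells and 2.73 times in control cells, while 40 FGF9-treated and 95 control cells exceeded 3 times the median. A small group of 17 FGF9-treated and 25 control cells exceeded 10 times the median, with maxima of 34335 tags in FGF9-treated cells and 26868 tags in control cells.

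A tag above the limit was not confined to the kept cells. Barcodes rich in feeder RNA, which passed the same limits on genes and mitochondrial UMIs but held at least 40 Vim and S100a6 UMIs, exceeded the tag limit in 9 of 63 FGF9-treated barcodes (14.3%, 6.75 to 25.4%) and in 8 of 31 control barcodes (25.8%, 11.9 to 44.6%). All kept cells did so in 180 of 4537 FGF9-treated cells (3.97%, 3.42 to 4.58%) and in 429 of 4157 control cells (10.3%, 9.41 to 11.3%). Some feeder-rich barcodes also held germ cell RNA, with a Uchl1 UMI in 36.5% of them in the FGF9-treated and 45.2% in the control library. Whether they were mixtures with germ cells was not tested. Barcodes outside the limits on genes and mitochondrial UMIs, whose median was 2117 UMIs in the FGF9-treated library and 2194.5 UMIs in control, had median tags of 313 and 439, nearly those of kept cells. The cells are therefore called here by their rule, tag-high and Kit RNA-negative, and not by a level of KIT protein.

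Kit RNA was found more often at higher tags over most of the range, so tag-high cells without Kit RNA stood beside cells that had it. A Kit UMI was read in 40 of 180 tag-high FGF9-treated cells (22.2%) and in 202 of 429 tag-high control cells (47.1%), against 3.03% of tag-low FGF9-treated cells and 11.6% of tag-low control cells. After every cell was thinned to 5000 UMIs, the shares were 10% in tag-high and 0.807% in tag-low FGF9-treated cells, and 18.9% in tag-high and 4.45% in tag-low control cells, with 22 FGF9-treated and 16 control tag-low cells too shallow to be thinned. Feeder-rich barcodes, which should lack the gene, had a Kit UMI in 0 of 63 FGF9-treated barcodes (a share of up to 4.76% by the limit of 3 counts, and of 5.69% by the exact interval) and in 1 of 31 control barcodes, at median depths of 26481 and 20517 UMIs. Summed over cells, Kit was 16.0 CPM (a gene's UMIs scaled to the same total in every sum of cells) in tag-high and 2.26 CPM in tag-low FGF9-treated cells, a log2 ratio of 2.83 (2.37 to 3.27). In control cells Kit was 39.7 CPM in tag-high and 9.24 CPM in tag-low cells, a log2 ratio of 2.10 (1.91 to 2.30).

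A count of 0 Kit UMIs did not separate cells without the transcript from cells in which it was missed. Among tag-high cells with Kit RNA, 29 of 40 FGF9-treated cells and 105 of 202 control cells held exactly 1 Kit UMI, and no cell held more than 7. At the median depth of the tag-high Kit RNA-negative cells, 1 UMI was worth 62.5 CPM in the FGF9-treated library and 62.2 CPM in control. The cells with the most tags were an exception to the relation between tag and Kit RNA. From 3 to 10 times the median tag, 45.2% of FGF9-treated cells and 56.8% of control cells had a Kit UMI, whereas above 10 times the median this held for 2 of 19 FGF9-treated cells (10.5%) and 2 of 27 control cells (7.41%).

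**Figure D1:**
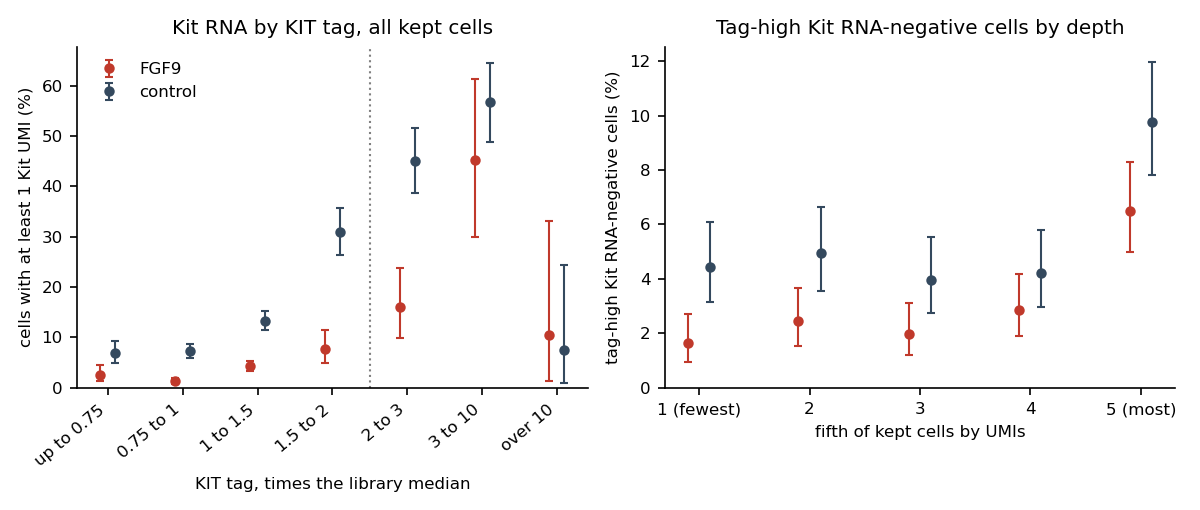
Left, share of kept cells with at least 1 Kit UMI (%) by KIT tag count in multiples of the library median, for FGF9-treated (red) and control (blue) cells, with the tag limit as a dotted line; right, share of kept cells that were tag-high and Kit RNA-negative (%) in 5 groups of equal size by UMIs per cell. Bars are 95% binomial intervals; the Kit share reached 45.2% (FGF9) and 56.8% (control) at 3 to 10 times the median and was 10.5% (FGF9) and 7.41% (control) above 10 times, and the tag-high Kit RNA-negative share was highest in the deepest group.

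Tag-high Kit RNA-negative cells were more deeply sequenced than the tag-low Kit RNA-negative cells they are compared with. The median was 16003 UMIs against 12921 UMIs in FGF9-treated cells, a ratio of 1.24, and 16080 against 14492.5 UMIs in control cells, a ratio of 1.11. Genes per cell followed, with medians of 4692.5 against 4223 in FGF9-treated cells and 4860 against 4560.5 in control cells. Very deep barcodes, above 2.5 times their library's median UMI count, were 18 of 140 tag-high Kit RNA-negative cells (12.9%) against 2.06% of tag-low Kit RNA-negative cells in the FGF9-treated library, and 18 of 227 (7.93%) against 0.941% in control. When kept cells were put in 5 equal groups by UMIs, the share that met the rule was 6.50% in the deepest group and between 1.65% and 2.87% in the others in FGF9-treated cells. In control cells it was 9.75% in the deepest group and between 3.97% and 4.93% in the others. Doublets were not called, and their part in these classes was not tested.

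Mitochondrial UMIs had medians of 9.27% against 9.17% in FGF9-treated cells and 9.41% against 9.53% in control cells, and ribosomal protein genes took 14.7% against 14.6% and 14.8% against 14.1%. Malat1, a nuclear RNA, took 0.266% against 0.286% of UMIs in FGF9-treated cells and 0.173% against 0.237% in control cells. Tags per 1000 UMIs were 51.8 against 23.5 in FGF9-treated cells and 78.3 against 28.5 in control cells, a difference that the rule itself brings about. Over all kept cells, Spearman's correlation between tag and UMIs was 0.278 in FGF9-treated cells and 0.217 in control cells. Among the tag-high Kit RNA-negative cells it was −0.046 (n = 140) and 0.0092 (n = 227). Tag-high cells with Kit RNA were the deepest class, with medians of 21083.5 UMIs in FGF9-treated cells and 19630 UMIs in control cells.

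**Figure D2:**
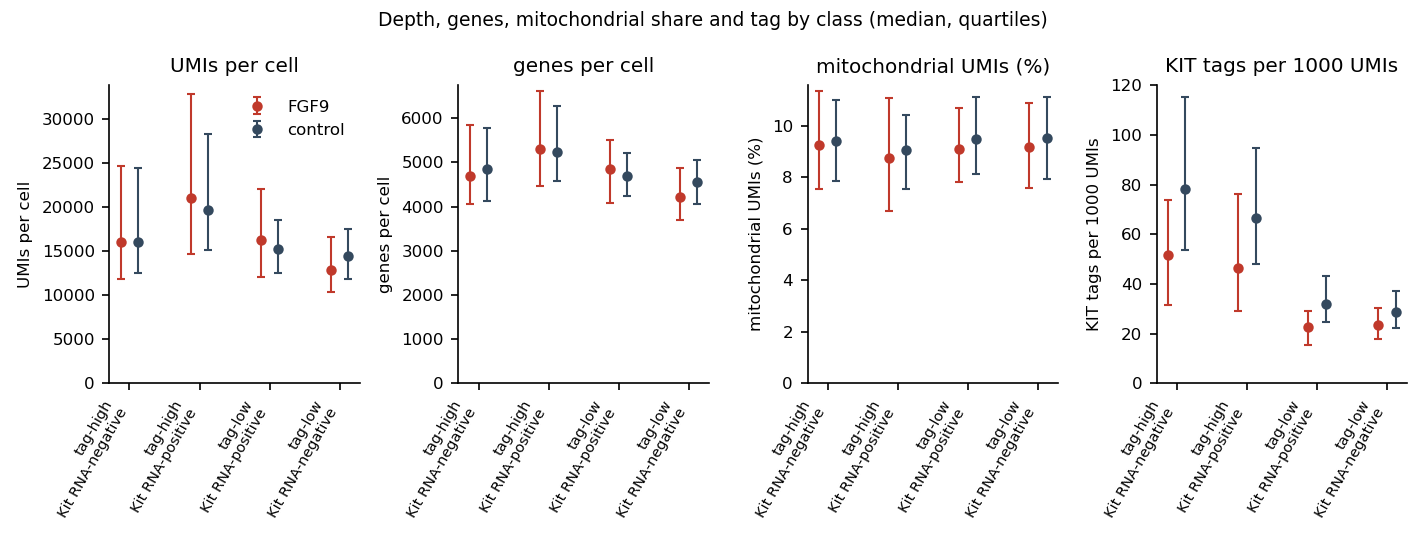
Medians (points) and quartiles (bars) of UMIs per cell, genes per cell, mitochondrial UMIs (%) and KIT tags per 1000 UMIs in the 4 classes of kept cells of the FGF9-treated (red) and control (blue) libraries. Tag-high Kit RNA-negative cells lie between tag-high Kit RNA-positive cells and tag-low Kit RNA-negative cells in UMIs, with 16003 (FGF9) and 16080 (control), and mitochondrial shares lie near 9% in all classes.

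To ask what else differed with the tag, UMIs were summed per library and class. Tag-high Kit RNA-negative cells were compared with tag-low Kit RNA-negative cells by edgeR's quasi-likelihood test over both libraries, with Kit left out. The differences were few and mostly small: of 12577 genes tested, 30 passed an adjusted p of 0.05 (0.239%), 18 of them higher (0.143%) and 12 lower (0.0954%), and 1237 had an unadjusted p under 0.05. All 30 had the same direction in both libraries. Genes of spermatogonial differentiation, Cdkn1a and Ldhb were among the genes that rose, and Hoxb genes, Fosb and Malat1 among those that fell. The split between directions depended on the scaling, with 10 higher and 19 lower on library totals without TMM factors and 17 higher and 26 lower without the filter on low counts. The test rests on 2 libraries of different treatment, and its spread was estimated over all 4 classes of kept cells. A call therefore does not show that a gene differed to the same extent in both libraries. Because depth differed between the classes, the 23 named calls were tested again against tag-low cells matched on UMIs, 3 per tag-high Kit RNA-negative cell, with medians of 16003 against 15999 UMIs in FGF9-treated and 16080 against 16077 UMIs in control cells. In this smaller comparison 9 of the 23 passed, all in the same direction, and 14 did not.

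Sohlh1 and Uchl1 gave the clearest differences among spermatogonial genes. Sohlh1, a germ cell transcription factor needed for spermatogonial differentiation, was at 142 CPM in tag-high and 104 CPM in tag-low Kit RNA-negative FGF9-treated cells, and at 256 CPM and 213 CPM in the same classes of control cells. It was higher in both libraries, with a log2 difference of 0.36 ± 0.06 (SE, adjusted p = 7.36e-05), and it held a UMI in 37.1% against 33.1% of FGF9-treated cells and 61.2% against 57.3% of control cells thinned to 5000 UMIs, beside 0 of 63 and 9.68% of feeder-rich barcodes. Before thinning the shares were 72.1% against 55.2% of FGF9-treated cells and 87.2% against 82.3% of control cells. The counting intervals of the thinned shares overlapped between the classes in both libraries. Uchl1, a ubiquitin hydrolase abundant in spermatogonia, was at 810 CPM against 636 CPM in FGF9-treated cells and at 1555 CPM against 1319 CPM in control cells. Its log2 difference was 0.32 ± 0.05 (adjusted p = 6.40e-06). Sohlh1 lies on chromosome 2 (25842995 to 25847248, minus strand) and Uchl1 on chromosome 5 (66676091 to 66687234, plus strand). Uchl1 kept its call under all 13 tested alternatives and Sohlh1 under 11, both also against cells matched on UMIs (log2 0.33 and adjusted p = 0.00107 for Sohlh1, 0.26 and 0.000888 for Uchl1), and the adjusted p of Sohlh1 was 0.173 under DESeq2 and 0.0692 with a tag limit of 3 times the median.

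Other germ cell genes also rose. Crabp1, a retinoic acid binding protein of the cytoplasm, had 68.1 CPM against 50.4 CPM in FGF9-treated cells and 111 CPM against 94.0 CPM in control cells (log2 0.35, adjusted p = 0.0127), and 0.20 against cells matched on UMIs (adjusted p = 0.482). Sycp3, a component of the synaptonemal complex, had 203 against 170 CPM in FGF9-treated cells and 319 against 278 CPM in control cells (log2 0.25, adjusted p = 0.0125), with an adjusted p of 0.0883 against matched cells. Lhx8, a homeobox transcription factor known from oocyte development, had 5.32 against 2.87 CPM in FGF9-treated cells and 25.4 against 15.5 CPM in control cells (log2 0.79 ± 0.17, adjusted p = 0.0125). Dppa3, a germ cell and early embryo protein, rested on few molecules, 16 UMIs in tag-high Kit RNA-negative FGF9-treated cells and 48 in control cells (log2 0.98, adjusted p = 0.0402), and its adjusted p was 0.0619 against matched cells. Its call held in 4 of 12 alternatives, that of Lhx8 in 9 of 13 and that of Crabp1 in 8 of 13. Thinned to 5000 UMIs, 17.9% against 18.1% of FGF9-treated cells and 39.6% against 33.4% of control cells held a Crabp1 UMI. For Sycp3 the thinned shares were 53.6% against 53.8% in FGF9-treated cells and 73.1% against 71.5% in control cells. For Dppa3 they were 0.714% against 1.45% in FGF9-treated cells and 4.85% against 2.53% in control cells, and for Lhx8 3.57% against 1.40% and 9.25% against 7.50%. The FGF9-treated shares of Crabp1, Sycp3 and Dppa3 thus did not follow the order of their CPM, and no order is read from them.

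Ldhb, the heart-type subunit of lactate dehydrogenase, was at 83.4 CPM against 59.4 CPM in FGF9-treated cells and at 73.0 CPM against 48.4 CPM in control cells. It rose by 0.57 ± 0.08 on the log2 scale (adjusted p = 2.81e-06) and kept its call in all 13 alternatives. A UMI was found in 30.0% against 18.0% of FGF9-treated cells and in 22.5% against 16.4% of control cells after thinning, and in 48.6% against 33.3% and 46.7% against 34.5% before it. Feeder-rich barcodes had Ldhb at 168 CPM in the FGF9-treated and 126 CPM in the control library, above all germ cell classes, and its gene lies on chromosome 6 (142490249 to 142507957, minus strand).

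Another gene that rose was far more abundant in feeder-rich barcodes and came from few cells. This was Cdkn1a, the cyclin-dependent kinase inhibitor p21 and a target of p53, at 36.5 CPM against 21.2 CPM in FGF9-treated cells and 27.8 CPM against 13.6 CPM in control cells, a log2 difference of 0.94 ± 0.13 (adjusted p = 8.67e-07). Only 31 of 140 FGF9-treated and 29 of 227 control cells held a Cdkn1a UMI, and 5 cells of each library held 63.1% (FGF9) and 62.4% (control) of them. Feeder-rich barcodes had 1391 CPM of Cdkn1a in the FGF9-treated and 1227 CPM in the control library, while the 5 cells with most Cdkn1a held between 1 and 8 Vim and S100a6 UMIs in FGF9-treated cells and between 0 and 4 in control cells. Against tag-low cells matched on UMIs the log2 difference was 0.25 (adjusted p = 0.653), and this was the 1 alternative of 13 in which the call was lost. With a tag limit of 3 times the median it was 1.87.

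Ccng1, Tuba1a and Spp1 were also more abundant in feeder-rich barcodes, with a smaller share of their UMIs in a few cells. The 5 cells with most UMIs held 27.1% (FGF9) and 34.5% (control) of Ccng1, 54.1% and 48.6% of Tuba1a, and 31.7% and 46.7% of Spp1. Ccng1, the p53 target cyclin G1, had 62.8 against 53.9 CPM in FGF9-treated cells and 61.9 against 45.0 CPM in control cells (log2 0.38, adjusted p = 0.0265), and 0.02 against cells matched on UMIs (adjusted p = 0.983). Its ratio was 0.22 (−0.01 to 0.44) in the FGF9-treated and 0.46 (0.27 to 0.64) in the control library. Tuba1a, an alpha tubulin, had 13.1 against 8.19 CPM in FGF9-treated cells and 16.0 against 8.31 CPM in control cells (log2 0.86, adjusted p = 0.00565), and 0.70 against matched cells (adjusted p = 0.142). Spp1, the secreted protein osteopontin, had 22.3 against 19.0 CPM in FGF9-treated cells, a log2 ratio of 0.24 (−0.15 to 0.60) in that library, and 13.4 against 5.46 CPM in control cells, a ratio of 1.29 (0.86 to 1.70). Its call over both (log2 0.69, adjusted p = 0.0495) therefore rests on the control library, and it was 0.48 against matched cells (adjusted p = 0.399). Feeder-rich barcodes of the FGF9-treated and control libraries had 430 and 315 CPM of Ccng1, 200 and 222 CPM of Tuba1a and 4194 and 2079 CPM of Spp1. The summed feeder markers were at 185 against 197 CPM in FGF9-treated cells and 149 against 156 CPM in control cells. The rule limits feeder RNA in both classes through Vim and S100a6, so nothing is concluded from these sums. The source of the UMIs of these genes was not tested.

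The other 7 genes that rose did so by 0.36 or less on the log2 scale. Fundc2, a protein of the mitochondrial outer membrane, had 110 against 73.7 CPM in FGF9-treated cells and 104 against 94.7 CPM in control cells, with ratios of 0.58 (0.41 to 0.74) in the FGF9-treated and 0.14 (0.00 to 0.28) in the control library (adjusted p = 0.00765). Stub1, a ubiquitin ligase that acts with chaperones, had 128 against 113 CPM in FGF9-treated cells and 171 against 129 CPM in control cells (log2 0.34, adjusted p = 0.00107). Avpi1 (0.36), Cks2, a subunit of cyclin-dependent kinases (0.22), Alyref, an mRNA export factor (0.20), Bsg, the surface protein basigin (0.20), and Rpl22l1, a ribosomal protein paralog (0.19), completed the set. Fundc2 and Avpi1 were also more abundant in feeder-rich barcodes, with 260 (FGF9) and 209 CPM (control) of Fundc2 and 74.0 and 83.8 CPM of Avpi1. The call of Fundc2 held in 10 of 13 alternatives and that of Avpi1 in 5 of 13.

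The genes that fell included 3 Hoxb homeobox genes on chromosome 11. Hoxb8 had 18.1 CPM against 29.5 CPM in FGF9-treated cells and 21.1 CPM against 34.4 CPM in control cells, a log2 difference of −0.67 ± 0.13 (adjusted p = 0.00104). Hoxb7 had 38.0 against 51.2 CPM in FGF9-treated cells and 34.9 against 55.2 CPM in control cells, with −0.53 ± 0.10 (adjusted p = 0.00104). Hoxb4 had 36.5 against 46.9 CPM in FGF9-treated cells and 24.9 against 36.6 CPM in control cells, with −0.43 (adjusted p = 0.0495). The genes code for transcription factors that pattern the body axis, and they lie at 96281905 to 96285315 (Hoxb8), 96286623 to 96290162 (Hoxb7) and 96318267 to 96321638 (Hoxb4), all on the plus strand. Hoxb7 and Hoxb8 kept their calls in 11 of 13 alternatives, also against cells matched on UMIs, and Hoxb4 in 6 of 13. The adjusted p of Hoxb4 was 0.105 against matched cells. Thinned to 5000 UMIs, 12.1% against 20.7% of FGF9-treated cells and 14.1% against 22.1% of control cells held a Hoxb7 UMI, and feeder-rich barcodes had 1.59% (FGF9) and 3.23% (control). Before thinning the shares were 40% against 40.9% in FGF9-treated cells, within counting error, and 37.4% against 44.4% in control cells.

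Fosb, an immediate early transcription factor of the AP-1 family, was at 21.3 CPM against 32.4 CPM in FGF9-treated cells and at 17.8 CPM against 29.0 CPM in control cells (log2 −0.63, adjusted p = 0.00382). Malat1, a nuclear non-coding RNA, was at 2740 against 3475 CPM in FGF9-treated cells and at 2166 against 2831 CPM in control cells (log2 −0.34 ± 0.04, adjusted p = 1.80e-07). Both differences were smaller at equal depth: against cells matched on UMIs the log2 differences were −0.26 for Fosb (adjusted p = 0.712) and −0.14 for Malat1 (adjusted p = 0.276). Hk1 (hexokinase 1, −0.49), Spire1 (an actin nucleator, −0.40), Nrd1 (the protease nardilysin, −0.34) and Hspa4 (a heat shock protein, −0.20) also fell, as did the predicted gene Gm42418 (−0.32) and the mitochondrial transcript mt-Nd4l (−0.30). Against matched cells Nrd1 passed, and Hk1 (adjusted p = 0.0704), Spire1 (0.165) and Hspa4 (0.298) did not. Ccdc177 had 0 UMIs in FGF9-treated and 1 UMI in control tag-high Kit RNA-negative cells, too few for a fold.

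**Figure D3:**
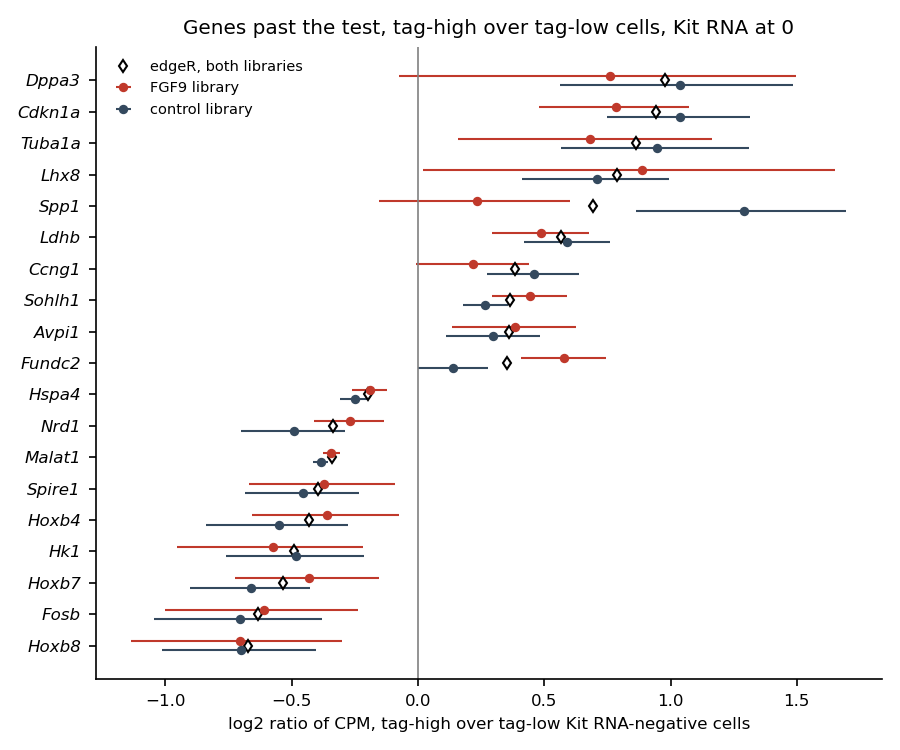
Log2 ratio of CPM, tag-high over tag-low Kit RNA-negative cells, for the 10 highest and 9 of the lowest ratios among genes past the test (Ccdc177, near 0 UMIs, is not drawn); points are the FGF9-treated (red) and control (blue) libraries with 95% counting intervals and diamonds the edgeR estimate over both. Each gene lies on the same side of 0 in both libraries, from 0.98 for Dppa3 to −0.67 for Hoxb8, and Spp1 differs most between libraries.

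Across finer steps of the tag in Kit RNA-negative cells, levels differed in steps below the limit as well as above it. Sohlh1 was at 89.5 CPM at up to 0.75 times the median tag and at 159 CPM at 3 to 10 times in FGF9-treated cells, and at 194 CPM and 244 CPM at these steps in control cells. Uchl1 was at 597 and 969 CPM at the same steps in FGF9-treated cells and at 1210 and 1622 CPM in control cells. Above 10 times the median tag, Sohlh1 was at 74.9 CPM in 17 FGF9-treated cells. In 25 control cells it was at 242 CPM, near its level at 3 to 10 times. Uchl1 was at 757 CPM (FGF9) and 1397 CPM (control), below its level at 3 to 10 times in both libraries. Ldhb was at 37.5 CPM (FGF9) and 25.9 CPM (control), below its level just under the limit. Cdkn1a had its highest level at 3 to 10 times the median in both libraries, 70.7 CPM in 23 FGF9-treated cells and 65.3 CPM in 70 control cells. At 2 to 3 times the median it had 22.8 CPM in FGF9-treated cells and 10.5 CPM in control cells, below the level in the step under the limit (40.7 and 25.1 CPM). These steps have no test, and the step above 10 times the median holds under 20 FGF9-treated cells.

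**Figure D4:**
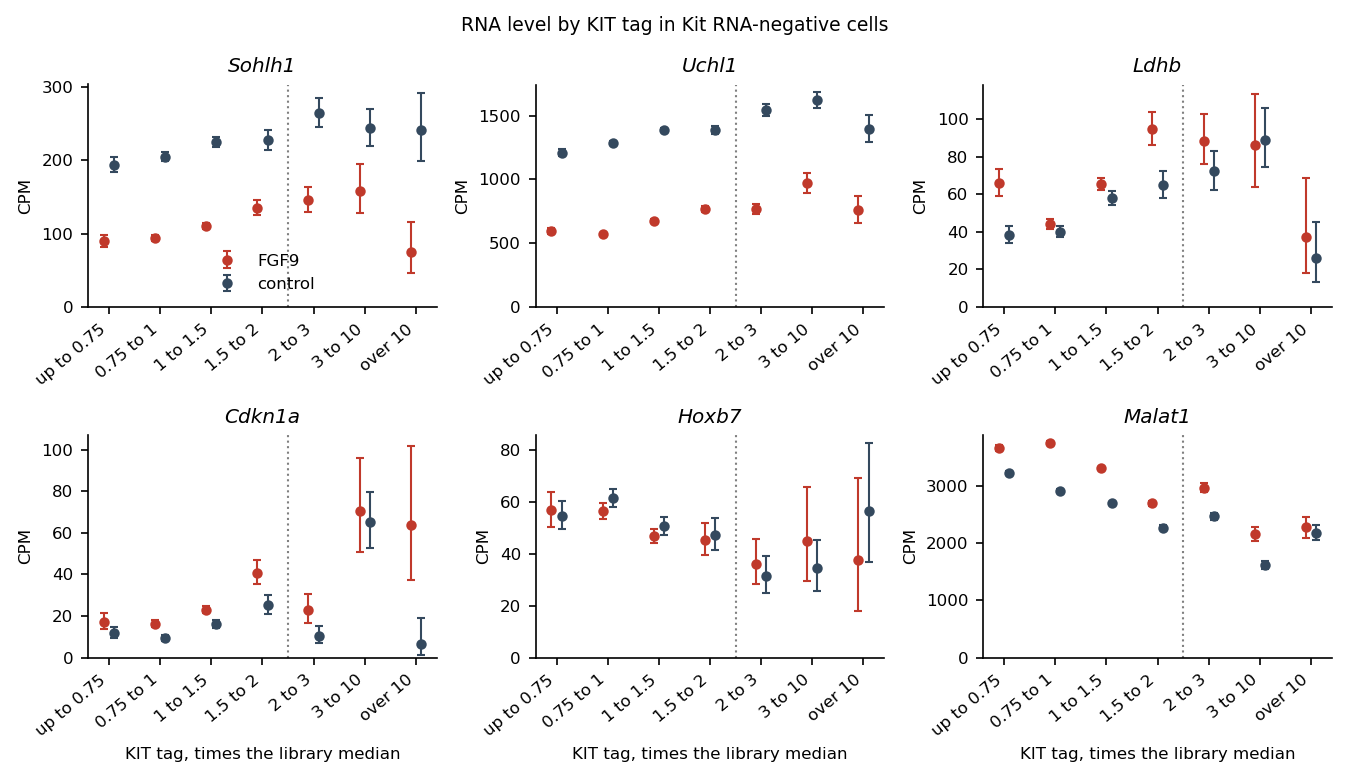
CPM of Sohlh1, Uchl1, Ldhb, Cdkn1a, Hoxb7 and Malat1 in Kit RNA-negative cells by KIT tag count in multiples of the library median, FGF9-treated (red) and control (blue), with 95% counting intervals; the dotted line is the tag limit. Sohlh1 and Uchl1 lie higher at 2 to 10 times the median than below the median in both libraries, and Ldhb is at 37.5 (FGF9) and 25.9 CPM (control) above 10 times.

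Few genes of the spermatogonial marker lists passed the test. Of 8 genes of differentiating spermatogonia, Sohlh1 and Crabp1 rose and 0 fell, with a median log2 difference of 0.19 beside −0.00078 over all genes tested. An unadjusted p under 0.05 was found for 4 of the 8 (50%), beside 9.84% of all genes. Their summed level was 651 against 615 CPM in FGF9-treated cells and 698 against 661 CPM in control cells. Sohlh2, the partner of SOHLH1, had a difference of 0.14 (adjusted p = 0.623), and Stra8, a retinoic acid target at the entry to differentiation, had 0.27 (adjusted p = 0.765). Of 7 progenitor genes 0 passed by edgeR and 0 had an unadjusted p under 0.05, with Neurog3 at −0.01, Sox3 at 0.14, Upp1 at −0.10 and Lhx1 at −0.23. Of 8 SSC genes 0 passed and 0 had an unadjusted p under 0.05. Gfra1 and Ret, the receptor parts for GDNF, were at −0.13 and −0.10, and the transcriptional regulators Etv5 and Id4 were at −0.30 and 0.11. The pan-germ genes, with Ddx4 at −0.07, Dazl at −0.05 and Dnd1 at 0.08, had 0 of 6 called and 1 with an unadjusted p under 0.05. Dazl, an RNA-binding protein of germ cells, was at 1737 against 1824 CPM in FGF9-treated cells and at 1635 against 1737 CPM in control cells.

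Genes that act with KIT or remove it showed no difference past the test. Of 16 tested signalling partners, 0 passed by edgeR and 2, Fyn and Pik3ca, had an unadjusted p under 0.05 (12.5%, beside 9.84% of all genes). Fyn, a SRC family kinase, was at 110 against 131 CPM in FGF9-treated cells and at 69.4 against 81.0 CPM in control cells (log2 −0.22, adjusted p = 0.221), and Pik3ca, the catalytic subunit of PI3 kinase, was at −0.24 (adjusted p = 0.429). Kitl itself was at 6.03 against 5.11 CPM in FGF9-treated cells and at 2.0 against 2.54 CPM in control cells, with a log2 difference of 0.04. Of 10 tested genes for removal or inhibition of the receptor, 0 passed and 1 had an unadjusted p under 0.05. This was Ap2m1, a subunit of the clathrin adaptor complex, at 115 against 103 CPM in FGF9-treated cells and at 141 against 119 CPM in control cells (log2 0.24, adjusted p = 0.0939). Cbl and Cblb, ubiquitin ligases that act on KIT, were at −0.10 and −0.16, and Adam17, a protease that sheds the receptor from the surface, was at 0.09. Of 10 regulators of Kit transcription, Sohlh1 alone passed (median 0.05).

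Few genes of the stress, death and cell cycle lists passed. Of 11 apoptosis and p53 genes, Cdkn1a and Ccng1 rose, 4 (36.4%) had an unadjusted p under 0.05 and the median was 0.14, and the death genes Bax (0.17, adjusted p = 0.117), Bbc3 (0.37, adjusted p = 0.510) and Pmaip1 (−0.14, adjusted p = 0.704) did not pass. Against cells matched on UMIs, 0 of the 11 passed. Of 10 stress and immediate early genes Fosb fell, 3 (30%) had an unadjusted p under 0.05 and the median was −0.06, and of 4 meiotic genes Sycp3 rose. For 18 S phase genes 0 passed and 2 had an unadjusted p under 0.05 (median 0.07). For 18 genes of G2 and mitosis 0 passed and 2 had an unadjusted p under 0.05 (median 0.12). Against cells matched on UMIs, 2 of these 18 were lower and the median was −0.14, the opposite direction. The 11 FGF and MAP kinase target genes had 0 called, 1 with an unadjusted p under 0.05 and a median of −0.08.

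Markers of mast cells (which carry KIT), macrophages and Sertoli cells were low in both classes. Of 6 mast cell genes 5 (Cpa3, Tpsb2, Cma1, Mcpt4 and Fcer1a) were at 0 UMIs in every class of both libraries. Macrophage genes summed to 2.13 against 2.13 CPM in FGF9-treated cells and to 1.11 against 1.00 CPM in control cells, with Adgre1, Csf1r and Lyz2 at 0 in the tag-high Kit RNA-negative cells. Sertoli cell genes summed to 8.51 against 11.9 CPM in FGF9-treated cells and to 6.23 against 8.74 CPM in control cells, and 0 of 2 tested passed, with 1 at an unadjusted p under 0.05. Of 4 feeder genes tested, 0 passed and 0 had an unadjusted p under 0.05. The rule itself limits Vim and S100a6, so the level of feeder genes is no finding.

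To ask whether tag-high cells without Kit RNA differed from tag-high cells with it, both were compared in the same edgeR test, which shares the tag-high Kit RNA-negative sums with the comparison above. Genes of proliferation were lower in the cells without Kit RNA: 52 of 12577 genes passed (0.413%), 8 higher (0.0636%) and 44 lower (0.35%), and 1124 had an unadjusted p under 0.05. Top2a, the DNA topoisomerase of dividing cells, was at 337 against 551 CPM in FGF9-treated cells and at 149 against 215 CPM in control cells, a log2 difference of −0.61 ± 0.07 (adjusted p = 2.25e-10). Mki67, the proliferation antigen Ki-67, was at 146 against 207 CPM in FGF9-treated cells and at 35.6 against 51.3 CPM in control cells (−0.52, adjusted p = 0.00281). Hmgb2, a chromatin protein of dividing cells, was at 527 against 791 CPM in FGF9-treated cells and at 267 against 319 CPM in control cells (−0.41, adjusted p = 6.01e-06). Of 18 genes of G2 and mitosis, 6 were lower (Top2a, Mki67, Tpx2, Cenpf, Cenpe and Ccnb1), 0 were higher and the median was −0.34, beside 0.00094 over all genes tested. Of 18 S phase genes Mcm3, a subunit of the replicative helicase, was lower (−0.33) and the median was −0.23. In summed G2 and mitosis genes, tag-high Kit RNA-negative cells were at 2834 CPM (FGF9) and 2008 CPM (control). Tag-low Kit RNA-negative cells were at 2843 and 1993 CPM. With Kit RNA, tag-high cells were at 4139 and 2415 CPM and tag-low cells at 4247 and 2428 CPM. The lower level was thus shared by cells without Kit RNA at either tag and was not particular to tag-high cells.

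The difference between tag-high cells without and with Kit RNA moved with depth. The very deep barcodes were 12.9% of FGF9-treated and 7.93% of control tag-high cells without Kit RNA, and 27.5% and 10.9% of those with it. Without them 0 of the 18 G2 and mitosis genes passed by edgeR. A total of 4 genes passed then, the median of the list was −0.06, and Top2a was at −0.27 (adjusted p = 0.319). Between 40 FGF9-treated and 190 control pairs of cells matched within 10% of UMIs, an alternative chosen after seeing the data, Top2a and Cenpf still passed, with −0.53 (adjusted p = 6.35e-06) and −0.30 (adjusted p = 0.0187). Tag-high cells with Kit RNA had medians of 21083.5 (FGF9) and 19630 UMIs (control), above those of the cells without it.

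**Figure D5:**
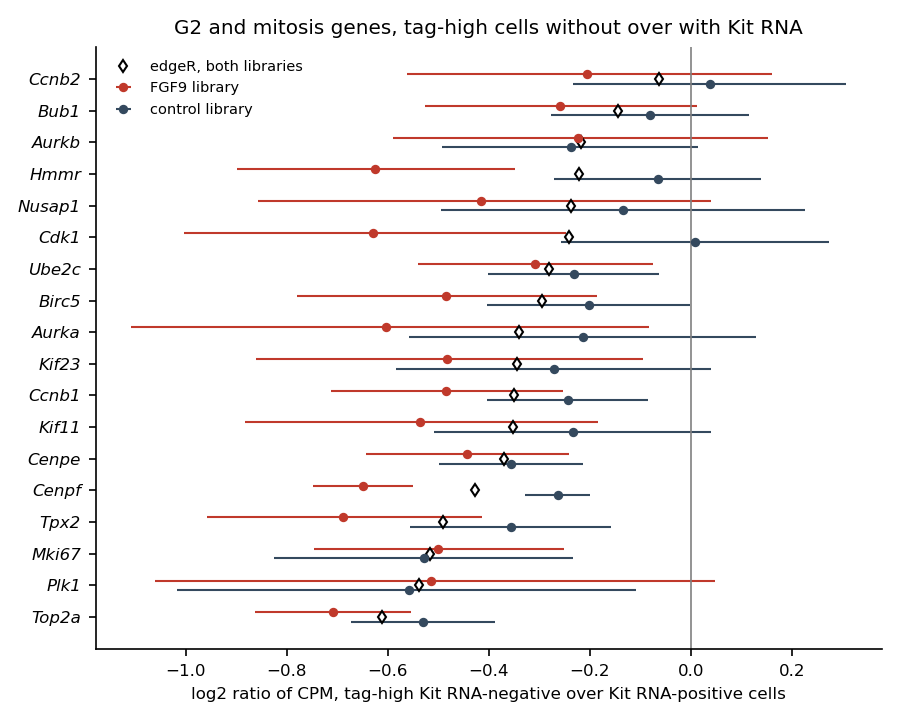
Log2 ratio of CPM, tag-high Kit RNA-negative over tag-high Kit RNA-positive cells, for the 18 genes of G2 and mitosis; points are the FGF9-treated (red) and control (blue) libraries with 95% counting intervals and diamonds the edgeR estimate over both. All 18 estimates lie below 0, from −0.06 for Ccnb2 to −0.61 for Top2a, and 6 pass the test.

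The 8 genes that were higher in tag-high cells without Kit RNA than in those with it included Ifitm1 and Nanos3. Ifitm1, an interferon-induced membrane protein also known from early germ cells, was at 82.3 against 64.9 CPM in FGF9-treated cells and at 57.4 against 32.1 CPM in control cells (log2 0.68 ± 0.13, adjusted p = 0.00175). It kept its call in all 12 alternatives. Nanos3, an RNA-binding protein of undifferentiated spermatogonia, was at 93.6 against 89.2 CPM in FGF9-treated cells and at 139 against 103 CPM in control cells (log2 0.36, adjusted p = 0.0460), and its call held in 3 of 12 alternatives. Akr1b8, an aldo-keto reductase, was at 18.1 against 11.2 CPM in FGF9-treated cells and at 16.5 against 6.55 CPM in control cells (log2 1.11, adjusted p = 0.0177). Crybg3, a protein of the crystallin beta-gamma domain family, was lower, at 9.58 against 21.3 CPM in FGF9-treated cells and at 13.4 against 37.8 CPM in control cells (log2 −1.39, adjusted p = 1.65e-06), and it kept its call in all 11 alternatives that gave an adjusted p. Against tag-low Kit RNA-negative cells none of these genes was called. Ifitm1 and Nanos3 were lower there in mean CPM per cell, which weighs every cell alike, unlike the CPM of summed UMIs above. Ifitm1 had 72.4 against 108 in FGF9-treated and 48.8 against 68.6 in control cells. Nanos3 had 93.7 against 114 in FGF9-treated and 128 against 147 in control cells. Crybg3 (10.4 against 8.83 in FGF9-treated, 14.2 against 17.0 in control cells) and Akr1b8 had no common direction.

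Against tag-high cells with Kit RNA, the germ cell genes that rose over tag-low cells did not pass the test. The log2 differences were 0.00 for Sohlh1, −0.01 for Uchl1, −0.14 for Crabp1, −0.01 for Lhx8, −0.04 for Sycp3 and 0.72 for Dppa3. Ldhb, which also rose over tag-low cells, was at −0.07, and Hoxb7, which fell, was at −0.08, neither of them called. Of the 8 genes of differentiating spermatogonia 0 passed by edgeR and 0 had an unadjusted p under 0.05, with a median of −0.01. Of the 8 SSC genes 0 passed and 2 had an unadjusted p under 0.05 (median 0.25), and Nanos3 alone passed among 7 progenitor genes (median 0.14). Tag-low cells with Kit RNA were not tested here but shared some rises. After thinning, 30.3% (FGF9) and 21.0% (control) of them held an Ldhb UMI and 39.4% and 65.6% a Sohlh1 UMI. Their genes of differentiating spermatogonia summed to 660 and 712 CPM. Hoxb8 did not follow in control, where 15.0% of them held a UMI against 7.93% of tag-high and 14.8% of tag-low Kit RNA-negative cells. The rises in Ldhb and Sohlh1 were thus not particular to tag-high cells.

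Within tag-high Kit RNA-negative cells, the ratios of FGF9-treated over control cells are given beside those of tag-low Kit RNA-negative cells. Summed over each list, SSC genes and FGF targets were higher, and progenitor genes lower, in the FGF9-treated library in both classes. SSC genes summed to 268 CPM in FGF9-treated and 83.2 CPM in control tag-high Kit RNA-negative cells, a log2 ratio of 1.69 (1.51 to 1.87), and to a ratio of 1.51 (1.46 to 1.55) in tag-low cells. Etv5, a transcription factor of SSC self-renewal, had 69 UMIs in FGF9-treated and 6 UMIs in control tag-high Kit RNA-negative cells, a log2 ratio of 4.20 (3.0 to 5.69) beside 3.91 in tag-low cells. Ret had ratios of 1.93 (1.62 to 2.24) and 1.49, and Gfra1 of 1.90 (1.48 to 2.34) and 1.81, in tag-high and tag-low cells. FGF and MAP kinase targets summed to 496 CPM in FGF9-treated and 185 CPM in control cells, a ratio of 1.42 (1.30 to 1.55) beside 1.54, and among them Dusp6, a phosphatase that acts on ERK, had a ratio of 3.89 beside 3.01.

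Progenitor genes summed lower under FGF9, with 273 CPM in FGF9-treated and 428 CPM in control tag-high Kit RNA-negative cells (log2 −0.65, −0.77 to −0.53), beside −0.64 in tag-low cells. Sox3 was at −1.38 (−1.69 to −1.08) and Neurog3 at −1.58 (−2.10 to −1.09). Lhx1 of the same list went the other way, with 61 UMIs in 140 FGF9-treated and 27 UMIs in 227 control cells. Outside this list, Sohlh1 was at −0.85 (−1.02 to −0.68) and Uchl1 at −0.94 (−1.01 to −0.87). The mean CPM per tag-low Kit RNA-negative cell was also lower in FGF9-treated than in control cells for those that fell. It was 33.3 against 92.1 for Sox3, 14.8 against 45.0 for Neurog3, 101 against 210 for Sohlh1 and 614 against 1303 for Uchl1. Differentiating genes as a list had a ratio of −0.10 (−0.18 to −0.02), while G2 and mitosis genes had 0.50 (0.45 to 0.54) and S phase genes 0.49 (0.43 to 0.54). In tag-low Kit RNA-negative cells the ratios of these lists were −0.10, 0.51 and 0.58. These ratios compare 1 library of each treatment, and the difference between the classes in them was not tested.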

How the data were processed

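Single-cell RNA and a KIT antibody tag (BioLegend) were measured in 1 FGF9-treated and 1 control library. The values deposited are raw UMI counts of 32285 genes and the tag, made by the authors with Cell Ranger (3.1.0 per the file headers) on mm10. The submitters' processing notes also name Seurat 3.1. All barcodes together held 72669787 UMIs in the FGF9-treated and 71481926 UMIs in the control library. The libraries shared 11 barcode sequences, 10 of them kept and 0 in the cells described.

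Kept cells formed 4 classes by tag (above 2 times the library median or not) and Kit UMIs (0 or more). UMIs were summed per library and class, and the 8 sums were fitted with edgeR 4.0.16 in R 4.3.3 (quasi-likelihood test, library and class as terms, TMM factors of 0.980 to 1.03, 3 residual degrees of freedom) for 12577 genes with at least 200 UMIs, with Benjamini-Hochberg adjustment and a threshold of 0.05. The steps were tested on simulated data. CPM were given exact Poisson, ratios exact conditional binomial and shares exact Clopper-Pearson intervals (95%). No doublet caller was run. Alternatives changed the tag limit, the depth or mitochondrial limits, the matching of cells, the scaling and the filter, or used DESeq2 1.42.0. Python 3.11.15, numpy 2.4.6, scipy 1.17.1, pandas 2.3.3 and matplotlib 3.10.9 were used.

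The cells, the 17 gene lists and the tests were chosen with earlier results of these data known. The genes to name were Kit, those the study names in single cells, the 10 highest and 10 lowest ratios past the test over tag-low cells with the same direction in both libraries (without predicted genes and mitochondrial transcripts), 5 and 5 over tag-high Kit RNA-positive cells, and up to 4 of each list with the largest ratio. Further genes, among them those of mitosis, were named after their values were seen. Coordinates are from GENCODE vM21.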

Additional observations from a re-analysis of the deposited data

How the results depend on the processing

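Among the named calls tried again (23 over tag-low and 10 over tag-high Kit RNA-positive cells), none turned round in direction. Each gene was counted once per alternative with a test, and the alternatives reuse the same cells, so these counts are not independent. Over tag-low cells, 199 such results of the named calls held and 98 lost significance. Of results for genes not called, 794 stayed so and 14 passed. Over tag-high Kit RNA-positive cells, 59 such results of the named calls held and 54 lost significance. The count of 30 genes over tag-low cells was 84 with tag-low cells at or below the median tag, 117 and 103 with tag limits of 1.5 and 3 times the median, 16 with limits set within 5 groups of UMIs, 15 with cells matched on UMIs, 76 with only the compared classes in the fit and 5 by DESeq2. The count of 52 over Kit RNA-positive cells was 97 with a limit of 1.5 times the median, 12 with limits within groups of UMIs, 6 with at most 10% mitochondrial UMIs, 21 with only the compared classes, 19 by DESeq2 (where 3068 genes had an adjusted p) and 4 without very deep barcodes. Of calls over Kit RNA-positive cells, 15.4% were higher, against 29.1% at 3 times the median and 75% without very deep barcodes. Among alternatives chosen after seeing the data, the count over Kit RNA-positive cells was 32 without cells of over 10 times the median tag and 14 between pairs matched on UMIs. The share of kept cells was 8.86% and 0.882% in FGF9-treated cells, and 12.0% and 2.29% in control cells, at 1.5 and 3 times the median, and 1.01% in FGF9-treated cells with the control limit. The ratio of median UMIs was 1.09 (FGF9) and 1.04 (control) with limits within groups of UMIs. FGF9 over control within these cells was 1.19 (3 times the median) and 1.23 (at most 10% mitochondrial UMIs) for FGF and MAP kinase targets and 1.42 (at most 10%) for SSC genes. The causes were not tested. No paired analysis was possible because each treatment has 1 library and both carry replicate number 1, fewer than 2 shared numbers. With 1 library per treatment, no value here measures variation between cultures, genes of few UMIs are limited by counting error, and 1 Kit UMI is near the median cell's detection limit.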
